A study of Mus musculus with 6 samples.

Results

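Transcripts of the stefin A cystatins were measured in the spleens of female NOD mice, which develop autoimmune diabetes without any treatment. The family was taken as 6 named genes (Stfa1, Stfa2, Stfa3, Stfa2l1, BC100530 and Csta1), and every probe set whose annotation names one of them was kept, which gave 4 probe sets for 4 genes among 45037 probe sets and 18193 genes. Stfa3, Stfa2l1 and Csta1 had a probe set of their own (1419709_at, 1442339_at and 1435760_at), whereas the probe set of Stfa1 (1435761_at) also names Cstdc5, another gene of the cluster. No probe set was found under the symbols Stfa2 and BC100530, so no level is given under these names. Whether BC100530 is an older name of another gene of the cluster was not settled. There were 3 groups: TSA-treated mice, untreated diabetic mice (labelled Sick) and untreated non-diabetic mice (labelled Control-nondiabetic). TSA, or trichostatin A, is an inhibitor of histone deacetylases and was injected under the skin once a week at 500 µg/kg between 18 and 24 weeks of age. Only treated mice that were free of diabetes entered the TSA-treated pool, and the other groups received no injection. The labels give 32 to 36 weeks as the age of all groups, while the study's methods give lower ages for the diabetic and the TSA-treated mice. By the methods the diabetic mice were also killed at a younger age than the TSA-treated mice. RNA of several mice (3 to 5 by the series' design text) was combined into 1 pool per group, and each pool was hybridized to 2 Affymetrix arrays, so the spread between arrays, and every p-value below, describes hybridizations of 1 pool and not mice.

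Stefins are small cystatins that stay inside the cell and block papain-like cysteine proteases, the cysteine cathepsins of lysosomes among them. Humans have a single stefin A gene, whereas in the mouse the gene has been copied many times side by side. Mouse stefin A transcripts are known from neutrophils and their precursors in bone marrow, and from the epidermis. In the annotation used, the cluster lies on chromosome 16 in the order Csta1, Stfa2l1, Cstdc4, Csta3, Csta2, Stfa1, Cstdc3, Cstdc6, Cstdc5, Stfa2 and Stfa3, and non-coding genes, pseudogenes and one other coding gene model lie between them.

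The 100 bases before the annotated start sites are shown for the genes with high levels in TSA-treated mice, for Csta1 and Stfa2, and for Cstdc5, which shares the Stfa1 probe set, because the 3 genes with high levels have closely similar promoters. The sequences are from RefSeq (build GRCm38.p6), run 5′ to 3′ on the strand of the gene and end 1 base before the start site. Capitals mark the run AGGAGGAG and the run TTTAAA, which has the form of a core promoter box.
Stfa1: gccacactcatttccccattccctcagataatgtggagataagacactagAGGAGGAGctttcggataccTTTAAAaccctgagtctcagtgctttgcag
Stfa2l1: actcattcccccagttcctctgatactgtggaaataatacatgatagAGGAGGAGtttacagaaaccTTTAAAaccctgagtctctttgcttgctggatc
Stfa3: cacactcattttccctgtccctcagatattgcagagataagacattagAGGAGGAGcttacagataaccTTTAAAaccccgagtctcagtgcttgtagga
Stfa2: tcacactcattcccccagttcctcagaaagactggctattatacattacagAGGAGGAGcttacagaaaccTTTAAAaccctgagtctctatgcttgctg
Cstdc5: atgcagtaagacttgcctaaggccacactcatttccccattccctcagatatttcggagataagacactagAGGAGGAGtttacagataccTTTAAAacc
Csta1: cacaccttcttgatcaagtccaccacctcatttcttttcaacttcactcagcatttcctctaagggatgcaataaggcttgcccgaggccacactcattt
These windows are chr16:36277048-36277147 (plus strand) for Stfa1, chr16:36156711-36156810 (plus) for Stfa2l1, chr16:36455393-36455492 (minus) for Stfa3, chr16:36408364-36408463 (minus) for Stfa2, chr16:36367571-36367670 (minus) for Cstdc5 and chr16:36131190-36131289 (minus) for Csta1. In Stfa1, Stfa2l1, Stfa2 and Cstdc5 the TTTAAA begins 20 bases after the start of AGGAGGAG, and in Stfa3 it begins 21 bases after it. Cstdc4, whose sequence is not shown, also has both runs 20 bases apart. The probe set that Cstdc4 shares with Csta2 had a low mean in TSA-treated mice, a log2 level of 3.37. It gives no level of Cstdc4 alone, and whether the runs go with high levels was not tested. Over the 250 bases before the start, the promoters of Stfa1 and Stfa3 were 83.1% identical, those of Stfa1 and Stfa2l1 80.4% and those of Stfa2l1 and Stfa3 80.5%. Stfa2l1 and Stfa2 were the closest pair of the family at 89.4% identity. The Csta1 promoter was 39.5% identical to that of Stfa1 over the same length. However, the last letters of the Csta1 window match the first letters of the Stfa1 window. The annotated starts are thus not at matching places, and nothing is drawn from this percentage or from the missing letters. Of 32851 RefSeq promoters, TTTAAA is present on either strand of the 250 bases in 12.1% and AGGAGGAG in 5.12%, against 8 and 6 of the 9 cluster genes searched. The letters GAGGAA, the core of PU.1-type sites of myeloid genes, occurred in 7 of the 9 (23.3% of all promoters) and TTNNGNAA, the form of C/EBP-type sites, in 6 of the 9 (36.8%). The 9 genes are copies of one another and can share letters by descent. They are not independent, and nothing is read from these counts. Neither GAGGAA nor TTNNGNAA overlapped TTTAAA in these promoters, and a match is a run of letters in a window and not a measured site.

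Stfa1, Stfa2l1 and Stfa3 had far higher levels in TSA-treated mice than in either untreated group. By their difference between TSA-treated and diabetic mice, these 3 probe sets ranked 1, 2 and 3 of the 45037 on the array, and Csta1 stayed at the bottom of the range in every group. The family was proposed with these differences known, so its levels are given as a description and carry no test. All values are log2 levels as summarized by the authors (Robust Multi-array Average), on which the median probe set had a mean of 3.891. A difference of 1 is a doubling of the signal.

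Stfa1, an inhibitor of cathepsins, was measured by the probe set it shares with Cstdc5, at 8.07 and 8.75 in TSA-treated mice, 4.92 and 5.43 in diabetic mice and 4.45 and 4.30 in non-diabetic mice. Both TSA-treated arrays lay above all others, and the lower one was 2.65 above the higher diabetic array. Its mean was higher in TSA-treated mice than in diabetic mice by 3.23 (9.41-fold, standard error 0.29) and than in non-diabetic mice by 4.04 (16.4-fold). The diabetic arrays in turn lay above the non-diabetic ones without overlap, by 0.80 in the means. Transcripts of these genes cannot be told apart with this probe set, and whether other near-identical copies bind to it was not tested.

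Stfa2l1, a close relative of Stfa2, stood at 8.38 and 8.17 in TSA-treated mice, 5.61 and 5.78 in diabetic mice and 5.23 and 4.90 in non-diabetic mice. The arrays of each group were close together and the groups did not overlap. The mean of the TSA-treated mice was 2.58 above that of diabetic mice (5.99-fold, standard error 0.19) and 3.21 above that of non-diabetic mice (9.23-fold), and diabetic mice were 0.62 above non-diabetic mice. Among the probe sets it lay at percentile 92.8 of the TSA-treated means, 71.7 of the diabetic means and 64.6 of the non-diabetic means.

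Stfa3, the gene at the far end of the cluster from Csta1, had 5.30 and 5.96 in TSA-treated mice, 3.30 and 3.14 in diabetic mice and 3.33 and 3.14 in non-diabetic mice. Both untreated groups were below the level of the median probe set, where a difference is compressed, and their arrays overlapped (difference of the means -0.01, standard error 0.25). TSA-treated mice were 2.41 above diabetic mice (5.32-fold) and 2.40 above non-diabetic mice (5.26-fold). The step between diabetic and non-diabetic mice seen for Stfa1 and Stfa2l1 was thus not visible for Stfa3 at this level, and that contrast between the genes was not tested.

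Csta1, the cystatin A gene at the other end of the cluster, was at 2.48 and 2.36 in TSA-treated mice, 2.49 and 2.41 in diabetic mice and 2.47 and 2.27 in non-diabetic mice. These values lie among the lowest on the arrays (percentile 2.29 of the TSA-treated means), and the 3 groups overlapped. The differences were -0.03 between TSA-treated and diabetic mice and 0.05 between TSA-treated and non-diabetic mice (standard error 0.16 for each).

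**Figure D1:**
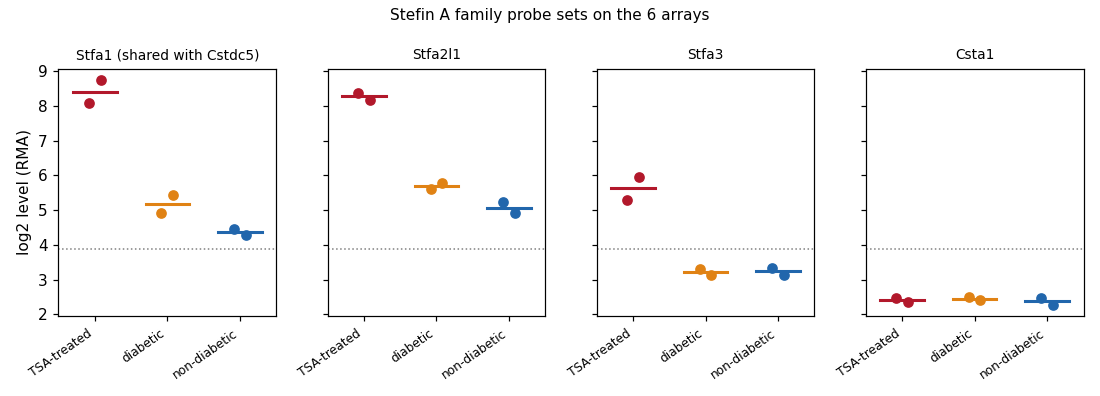
Log2 level (RMA) of the 4 stefin A probe sets; each point is 1 array, each bar a group mean and the dotted line the mean of the median probe set (3.891). Stfa1, Stfa2l1 and Stfa3 are highest on both TSA-treated arrays, with means of 8.41, 8.27 and 5.63, while Csta1 stays near 2.4 in all groups.

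Over the 4 genes the median difference was 2.50 between TSA-treated and diabetic mice, 2.80 between TSA-treated and non-diabetic mice and 0.35 between diabetic and non-diabetic mice, against 0.02, 0.05 and 0.01 over all probe sets. The first pair of differences share the TSA-treated arrays and are not independent of each other. The next probe set after the 3 stefins in the first comparison was that of Pla2g4c, a cytosolic phospholipase A2, with a difference of 1.96, and only 0.00666% of all probe sets, these 3, were higher by at least 2. Against non-diabetic mice, where many pancreatic enzyme transcripts were also higher, Stfa1, Stfa2l1 and Stfa3 ranked 14, 26 and 36, and 0.147% of probe sets were higher by at least 2. Limma at an adjusted p under 0.05 called 1 of the 4 probe sets (Stfa2l1) higher in TSA-treated than in diabetic mice, against 0.00222% of all probe sets called higher, and 2 (Stfa1 and Stfa2l1) higher in TSA-treated than in non-diabetic mice, against 0.0577%. It called 0 of the 4 between diabetic and non-diabetic mice, where 0.0866% were called higher. On 3, 3 and 2 of the 4 probe sets the arrays of the first-named group lay wholly above the others (TSA-treated over diabetic, TSA-treated over non-diabetic and diabetic over non-diabetic mice), as they did on 16.2%, 26.3% and 21.6% of all probe sets. Nothing is read from these counts, since the family was chosen on the same arrays. They moved with single arrays, to 0 in both comparisons of TSA-treated mice without either non-diabetic array, to 0 against diabetic mice without either diabetic array or TSA-treated replicate 2, to 1 against non-diabetic mice without TSA-treated replicate 2, and to 3 in both without TSA-treated replicate 1. Against non-diabetic mice the count was 3 without either diabetic array.

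**Figure D2:**
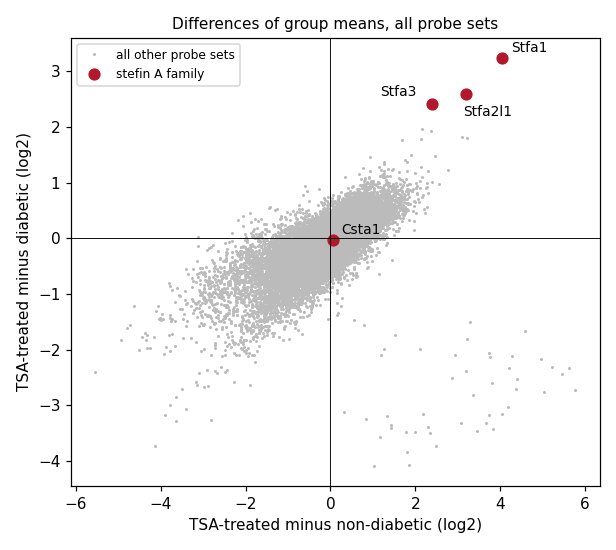
Difference of group means (log2) for every probe set, between TSA-treated and non-diabetic mice (horizontal axis) and between TSA-treated and diabetic mice (vertical axis); both axes use the TSA-treated arrays. Stfa1, Stfa2l1 and Stfa3 are the 3 highest points, at 3.23, 2.58 and 2.41 on the vertical axis, and Csta1 lies at the center.

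The arrays differed in RNA quality along with the groups. The signal of the beta-actin control probe sets was higher at the 3′ than at the 5′ end by 3.45 and 5.61 on the TSA-treated arrays, 2.42 and 3.32 on the diabetic arrays and 2.35 and 2.05 on the non-diabetic arrays. For Gapdh the same gap was 3.85 and 4.58 on the TSA-treated arrays, 1.82 and 3.19 on the diabetic arrays and 2.67 and 1.91 on the non-diabetic arrays. Each TSA-treated array thus had larger gaps than any array of the other groups. TSA-treated replicate 1 and diabetic replicate 2 were the nearest arrays of these groups by beta-actin gap, while their Gapdh gaps were 3.85 and 3.19. They had a Pearson correlation of 0.990 over all probe sets (probe sets are not independent replicates). Stfa1, Stfa2l1 and Stfa3 were 2.65, 2.60 and 2.17 higher on the TSA-treated array of the pair. This is 1 pair of arrays, and nothing is drawn from it. Without TSA-treated replicate 2 the median difference of the family was 2.38 against diabetic mice and 2.69 against non-diabetic mice. The spleen's own lymphocytes were visible on all arrays, Ms4a1 (CD20 of B cells) having means of 10.3, 11.4 and 11.5 in TSA-treated, diabetic and non-diabetic mice. Of 11 B cell markers, limma called 0 in any comparison, but 10 were lower in TSA-treated than in non-diabetic mice at an unadjusted p under 0.05 (median difference -1.24), as were 9 of 12 T cell markers (median -0.72), against 8.34% of all probe sets. Between TSA-treated and diabetic mice 5 of these B cell and 3 of these T cell markers were lower and 0 higher (medians -0.96 and -0.36). Over all probe sets 2.06% were lower there. Between TSA-treated and non-diabetic mice 8 of 14 erythroid genes and 4 of 18 monocyte and macrophage genes were higher at this threshold (medians 0.63 and 0.28). Over all probe sets 6.39% were higher, and limma called 0 of either list. The monocyte and macrophage genes did not move together. Of the 18, 12 differences were above 0, while C1qa, a complement gene, was lower at this threshold with a difference of -3.79. Of 12 acinar pancreas genes limma called 4 lower in TSA-treated than in diabetic mice. There it called 12 of all 45037 probe sets in either direction. It called 9 of these genes higher in TSA-treated than in non-diabetic mice, against 0.0577% of all probe sets. The median differences were -2.51 and 3.51, opposite in sign to the stefins in the first of these comparisons and alike in the second. The part of RNA quality and of other cell types in the stefin levels was not tested. In such bulk RNA, more cells of a type and more RNA per cell cannot be told apart.

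Neutrophil genes are the known company of stefin A. Since Stfa1, Stfa2l1 and Stfa3 ranked first between TSA-treated and diabetic mice, no neutrophil gene could be higher by as much there. Against non-diabetic mice none of the measured neutrophil genes was higher by as much. Few probe sets of any kind were, since these stefins ranked 14, 26 and 36 there, and nothing is read from this. Of 47 measured granule and surface genes of neutrophils (57 were listed), limma called 0 in any of the 3 comparisons. At an unadjusted p under 0.05, 0 were higher and 10 lower in TSA-treated than in diabetic mice, 11 higher and 1 lower in TSA-treated than in non-diabetic mice, and 16 higher and 0 lower in diabetic than in non-diabetic mice. Over all probe sets this threshold was passed upward by 2.21%, 6.39% and 2.84% and downward by 2.06%, 8.34% and 3.43% in these comparisons. The same shares are the background for the unadjusted counts of the lists further below. The median differences of the list were -0.35, 0.14 and 0.46, so that its median ran opposite to the stefins between TSA-treated and diabetic mice. The largest positive difference of these genes between TSA-treated and non-diabetic mice was 1.61, for the lectin receptor Clec4e (adjusted p = 0.148 from limma), below that of any of the 3 stefins. Levels within the list ranged widely. S100a8 averaged 13.25 over the arrays, while Cxcr2 and Padi4 averaged 3.52 and 3.32, below the median probe set. The mean level of the list was 6.58 to 7.06 on the TSA-treated arrays, 7.15 to 7.32 on the diabetic arrays and 6.74 to 6.76 on the non-diabetic arrays.

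Among the genes of mature neutrophils, S100a8 and S100a9, the 2 chains of calprotectin, were at 13.35 ± 0.09 and 13.27 ± 0.10 in TSA-treated mice, 13.52 ± 0.13 and 13.59 ± 0.13 in diabetic mice and 12.88 ± 0.12 and 12.74 ± 0.10 in non-diabetic mice (SD, n = 2 arrays). Neither passed limma's test in any comparison, and both had their highest mean in diabetic mice. Fpr2, a formyl peptide receptor, was nearest to the threshold, at 8.22 ± 0.21 in TSA-treated, 7.89 ± 0.13 in diabetic and 6.92 ± 0.05 in non-diabetic mice. Its difference of TSA-treated from non-diabetic mice was 1.29 (adjusted p = 0.0974 from limma). In a fit on 1 averaged value per gene it passed (adjusted p = 0.0403 from limma), although its own difference was unchanged. The purine enzyme Gda followed, with a difference of 1.06 (adjusted p = 0.127 from limma). The mature neutrophil list as a whole had a median difference of 0.01 between TSA-treated and diabetic mice and 0.31 between TSA-treated and non-diabetic mice.

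Granule genes made at earlier stages differed among themselves. Between TSA-treated and diabetic mice the median difference was -0.53 for 7 primary granule genes and -0.41 for 20 secondary and tertiary granule genes, and between TSA-treated and non-diabetic mice it was -0.30 and -0.02, with 3 of the 7 and 10 of the 20 above 0. None passed limma's test. The TSA-treated arrays differed from each other. The primary and the later granule lists had mean levels of 7.08 and 7.43 on replicate 1, but 6.42 and 6.66 on replicate 2. These means were 6.96 to 6.99 and 7.18 to 7.19 on the non-diabetic arrays. Thus only replicate 2 lay below the non-diabetic arrays, while both replicates lay below the diabetic arrays. Mpo, the myeloperoxidase of primary granules, had means of 8.16 ± 0.74 in TSA-treated, 9.26 ± 0.06 in diabetic and 8.72 ± 0.03 in non-diabetic mice (SD, n = 2 arrays), whereas Ctsg, the cathepsin G of the same granules, had 8.36 ± 0.04, 8.89 ± 0.29 and 7.50 ± 0.16 in the same order. Of the secondary granule genes, Ngp had 11.39 ± 1.05, 12.53 ± 0.09 and 12.14 ± 0.07 and the chitinase-like Chil3 10.38 ± 0.07, 10.81 ± 0.17 and 9.83 ± 0.02. All 4 had their highest mean in diabetic mice. In a fit without TSA-treated replicate 1, 10 neutrophil genes were called lower in TSA-treated than in diabetic mice, and 9 lower and 1 (Fpr2) higher than in non-diabetic mice. That fit rests on TSA-treated replicate 2 alone, assumed to vary like the other groups, and called 1047 and 2045 probe sets in all. Of 18 measured granulocyte regulators limma called 0. At an unadjusted p under 0.05, 1 was higher and 4 lower in TSA-treated than in non-diabetic mice, against 6.39% and 8.34% of all probe sets. Against diabetic mice 1 was higher and 3 lower, where 2.21% and 2.06% of all probe sets were. Spi1, which codes for PU.1, was at 6.28 ± 0.26 in TSA-treated, 6.94 ± 0.37 in diabetic and 7.59 ± 0.03 in non-diabetic mice. What part changes in neutrophil number or maturity have in the stefin levels was not tested.

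**Figure D3:**
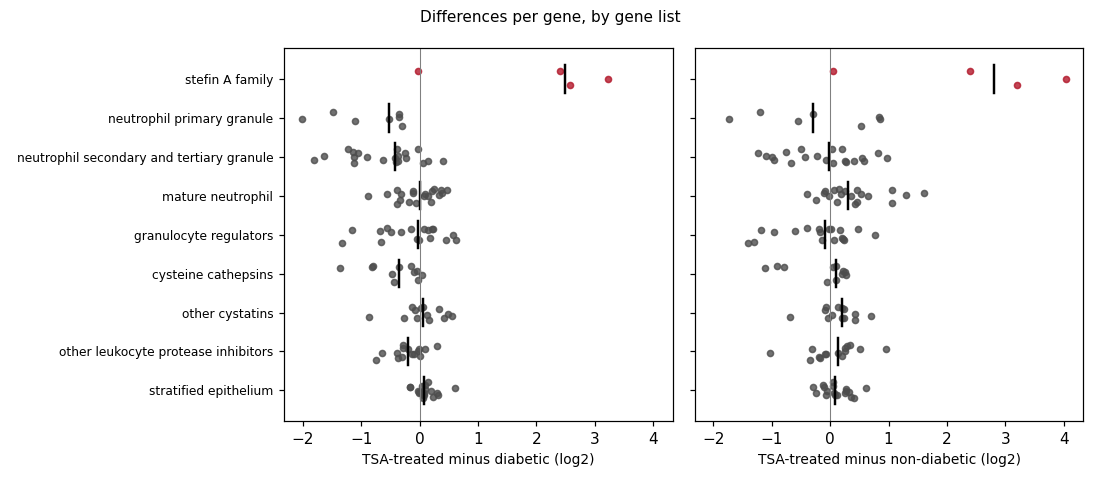
Differences of group means (log2) per gene between TSA-treated and diabetic mice (left) and between TSA-treated and non-diabetic mice (right), by gene list; points are genes by their brightest probe set and vertical bars the median of a list. The 3 stefins lie between 2.41 and 3.23 on the left, where they rank first of all probe sets on the array. On the right they lie between 2.40 and 4.04, above every gene of the other lists shown, and few probe sets of any kind lie higher there.

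The epidermis is the other known site of stefin A, and most of its markers lay at low levels. Of 18 measured genes of stratified epithelium limma called 0 in any comparison, 0 also at an unadjusted p under 0.05, and their mean level was 3.53 to 3.64 on the TSA-treated arrays, 3.43 to 3.53 on the diabetic arrays and 3.47 to 3.49 on the non-diabetic arrays. Krt5 and Krt14, the keratins of the basal layer, had means of 3.38 and 3.18 in TSA-treated mice, 3.24 and 3.10 in diabetic mice and 3.33 and 3.09 in non-diabetic mice. These levels are below the median probe set, and the brightest marker, the desmosome gene Pkp1, averaged 5.71 over the arrays. Of 15 measured genes of eosinophils, basophils and mast cells 0 were called, with a median difference of 0.09 between TSA-treated and non-diabetic mice and 1 lower at an unadjusted p under 0.05.

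For the cysteine proteases of lysosomes, which include those that stefins bind, no difference passed the test. Of 11 genes, all measured (10 cathepsins and Lgmn, legumain, a protease of another family), limma called 0 in any comparison; at an unadjusted p under 0.05, 1 (Ctsw, a cathepsin of cytotoxic lymphocytes) was lower in TSA-treated than in both untreated groups and 0 were higher in any comparison. Ctsb, cathepsin B, was at 12.09 ± 0.29 in TSA-treated, 12.23 ± 0.26 in diabetic and 11.98 ± 0.03 in non-diabetic mice (SD, n = 2 arrays). Ctss, a cathepsin of antigen presentation in B cells and dendritic cells, was at 11.52 ± 0.04, 11.56 ± 0.23 and 11.31 ± 0.11 in the same order, a difference of 0.22 between TSA-treated and non-diabetic mice (adjusted p = 0.649 from limma). The median difference of the list was -0.35 between TSA-treated and diabetic mice and 0.10 between TSA-treated and non-diabetic mice. Without TSA-treated replicate 1, 2 of the 11 (Ctsz and Lgmn) were called lower in TSA-treated mice in both comparisons, in the fit that rests on 1 TSA-treated array.

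Other cystatins gave 0 calls as well among 13 measured genes of 16 listed (1 higher, Kng1, at an unadjusted p under 0.05 between TSA-treated and non-diabetic mice). Cstb, stefin B, the single-copy relative that is present in most cells, was at 10.13 ± 0.20 in TSA-treated, 10.21 ± 0.06 in diabetic and 10.21 ± 0.03 in non-diabetic mice (SD, n = 2 arrays). Its difference of -0.08 in both comparisons of TSA-treated mice lay within the spread of the TSA-treated arrays. Cst3, the secreted cystatin C, was at 10.49 ± 1.20, 11.36 ± 0.31 and 11.18 ± 0.08 in the same order, with adjusted p = 0.902 and 0.616 from limma for TSA-treated against diabetic and non-diabetic mice. Of 15 measured inhibitors of other protease classes in leukocytes limma likewise called 0 (2 higher and 1 lower at an unadjusted p under 0.05 between TSA-treated and non-diabetic mice), with Wfdc21, a small secreted inhibitor-like protein, at 8.67 ± 0.41, 8.86 ± 0.04 and 7.71 ± 0.13. Cstdc1 and Cstdc2, which have a cystatin domain but lie on chromosome 2, were at 2.78 and 3.95 in TSA-treated, 2.54 and 3.81 in diabetic and 2.75 and 3.84 in non-diabetic mice.

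Within the cluster, the probe set that names both Cstdc4 and Csta2 was at 3.20 and 3.54 in TSA-treated, 3.07 and 3.02 in diabetic and 3.01 and 2.81 in non-diabetic mice. It was highest on both TSA-treated arrays, but by 0.46 over non-diabetic mice only and without passing limma's test (adjusted p = 0.34), at a level under the median probe set. Against non-diabetic mice the genes around the cluster showed no difference of the size seen for Stfa1, Stfa2l1 and Stfa3. Few probe sets of any kind did, and nothing is drawn from this. Against diabetic mice none could be higher by as much, given the ranks of these stefins. Of 12 flanking genes, the nearest 6 on either side with a probe set of their own, limma called 0 in any comparison, and their differences ran from -0.44 to 0.51 between TSA-treated and diabetic mice and from -0.33 to 0.64 between TSA-treated and non-diabetic mice. Unadjusted, 0 and 1 of them had a p under 0.05 in these comparisons, and 2 did between diabetic and non-diabetic mice. The 1 and the 2 were higher in the first-named group, against 6.39% and 2.84% of all probe sets. The flanks hold Cd86, the costimulatory receptor of antigen-presenting cells, next but one to Stfa3, with differences of -0.24 and -0.22. The flanking genes were chosen after the values of the family were seen.

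**Figure D4:**
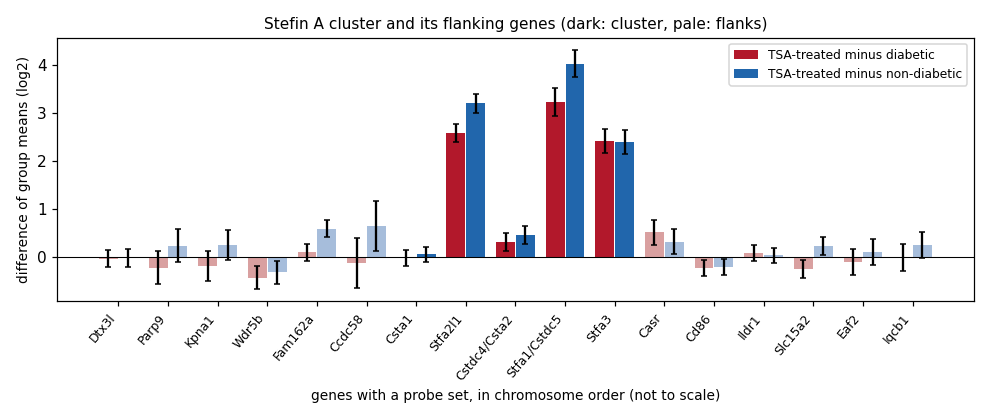
Differences of group means (log2, bars) with limma's standard error for the probe sets of the stefin A cluster (dark) and the 6 nearest measured genes on either side (pale), in chromosome order. Stfa2l1, Stfa1 with Cstdc5, and Stfa3 lie 2.40 to 4.04 higher in TSA-treated mice, and the flanking genes stay between -0.44 and 0.64.

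The genes whose levels followed the stefins most closely were taken by the Pearson correlation over the 6 arrays with the mean centred profile of the 4 probe sets, among 2247 genes above the median level whose group means spanned at least 1. The 10 with the highest correlation (0.981 to 0.995, a description over arrays that share 3 pools) were Txnrd2, Pla2g4c, Tspan8, Marchf2, Cdca5, Itsn1, Saa3, Brca2, Fcgr4 and H2bc21. Their differences between TSA-treated and diabetic mice were 0.87 to 1.96, and no probe set outside the family exceeded Stfa3 in this comparison. Pla2g4c was at 6.98 and 7.30 in TSA-treated, 4.99 and 5.36 in diabetic and 5.10 and 4.84 in non-diabetic mice. Saa3, an acute phase serum amyloid A made by macrophages among others, was at 6.67 and 6.72 in TSA-treated, 4.91 and 4.96 in diabetic and 5.09 and 4.93 in non-diabetic mice, a flat line between the untreated groups like that of Stfa3. Fcgr4, an Fc receptor of monocytes, macrophages and neutrophils, was at 7.26 and 7.02 in TSA-treated, 6.01 and 6.05 in diabetic and 5.92 and 5.71 in non-diabetic mice. Among the 4 stefin probe sets themselves, Stfa1 correlated at 0.986 with Stfa2l1 and at 0.972 with Stfa3 over the 6 arrays, and at 0.08 with Csta1.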

How the data were processed

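Spleen RNA of 3 groups was hybridized to 6 Affymetrix arrays, 2 for each group's single pool. The deposited values are log2 levels, which the authors obtained by quantile normalization and Robust Multi-array Average summary, RMA; the steps pull low signals toward the array background and compress small changes there. Of 45101 probe sets, 64 Affymetrix controls were left out of tests, and no other filter was applied. By the platform annotation 34945 probe sets name 1 gene, 932 several and 9160 none. One linear model with a mean for each group was fitted to all arrays in limma 3.58.1 (R 4.3.3) with Benjamini-Hochberg adjustment over all probe sets of a comparison and a threshold of 0.05, after the test was tested on simulated data. The methods name LPE, which was not run here. A gene outside the family was represented by its brightest probe set. Members and lists were chosen with earlier results of these data known. Named genes are all members, up to 4 genes of a list (called ones, otherwise the brightest) and the 10 most alike in profile. Clec4e, Fpr2, Cxcr2, Padi4, Spi1, Ctsw, Kng1, Wfdc21, Ms4a1, C1qa, Krt5, Krt14 and Cd86 fall outside this rule. So do the genes named when an array is left out. All of these were chosen after their values were seen. Promoters were aligned with Biopython 1.88. Alternatives were a replicate block, leaving out each array, a fit of 2 groups, an intensity trend, the methods' t-test, quantile normalization again, median centring, a filter on dim probe sets, and other choices of probe set. The small number of arrays limits precision.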

Additional observations from a re-analysis of the deposited data

How the results depend on the processing

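The family's median difference between TSA-treated and diabetic mice kept its direction and its size to within the spread between duplicates under all alternatives run (2.38 to 2.61 when leaving out single arrays). Between TSA-treated and non-diabetic mice it ran from 2.67 to 2.93 when leaving out single arrays, and was 3.21 with the filter on dim probe sets, which leaves out Csta1, and 2.40 with only probe sets that name 1 gene, which leaves out Stfa1. Between diabetic and non-diabetic mice it ran from 0.22 to 0.48, and was 0.62 and 0.0809 under the same choices. Each member has 1 probe set, so averaging probe sets changed nothing for the family.

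Counts of called probe sets depended on the processing far more. Between TSA-treated and diabetic mice the count was 12, ran from 0 to 1047 when leaving out single arrays, and was 0 with the replicate block, in a fit of the 2 groups alone, with median centring and by the methods' t-test after adjustment, 22 with the filter on dim probe sets, and 1359 by the t-test unadjusted. Between TSA-treated and non-diabetic mice it was 31, ran from 0 to 2045, and was 714 in a fit of the 2 groups alone, 60 with quantile normalization again, and 2 and 5241 by the t-test with and without adjustment. Between diabetic and non-diabetic mice it was 40, ran from 23 to 243, and was 1 and 2667 by the t-test. Of the neutrophil genes, 0 were called, but 0 to 10 in either comparison of TSA-treated mice when leaving out single arrays, 1 (Fpr2) between TSA-treated and non-diabetic mice when the probe sets of each gene were averaged, and 1, 12 and 13 by the unadjusted t-test between TSA-treated and diabetic, TSA-treated and non-diabetic, and diabetic and non-diabetic mice. Of the cysteine cathepsins with legumain, 0 to 2 were called in either comparison of TSA-treated mice when leaving out single arrays. The cause was not tested beyond what an alternative leaves out.

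Arrays of different groups share only a replicate number, since each pool was labelled separately; deviations of same-numbered arrays correlated at -0.11 between TSA-treated and diabetic, -0.04 between TSA-treated and non-diabetic and -0.34 between diabetic and non-diabetic arrays. With the replicate number as a block, 0 probe sets were called between TSA-treated and diabetic mice, and the counts of the other comparisons stayed within 1.5 times. Levels below the median probe set, such as those of Csta1 in all groups and Stfa3 in untreated mice, lie near background, where small differences cannot be resolved.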
